A study of Homo sapiens with 18 samples.

Results

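The genes described here are 40 genes of mitosis and the spindle, among 19775 genes measured in HCT116 cells. HCT116 is a long-established line of human colorectal carcinoma, and the study set its parental line and named clones of it side by side, 9 in all. For brevity the parental line is counted among these 9 clones throughout. They differ in the genes of isocitrate dehydrogenase, IDH1 for the cytosolic enzyme and IDH2 for the mitochondrial one. Among the mutant clones, IDH1 R132H/+ was carried by 2C11 and 2H1, IDH1 R132C/+ by 3A4, IDH2 R140Q/+ by 8G12 and 17H5, and IDH2 R172K/+ by 47C2 and 45G3. Of the references, clone 16F8 carries IDH1 R132C/+ but, per the labels, does not express the mutant allele and is wild-type at the mRNA level, and the parental line is wild-type. Every clone was grown for 6 days without treatment and measured on 2 arrays labelled as biological replicates. Every genotype was represented by 1 or 2 clones, so a change seen in a single clone belongs to that clone.

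The members were named as a list by their role in mitosis, and no measured value enters the rule. The list was nevertheless chosen with earlier results of these data known. All 40 had at least 1 probe set that carries their symbol alone, 80 probe sets in all, and each gene was read from the probe set with the highest mean signal. All 40 also passed the filter on dim probe sets, which required both arrays of at least 1 clone to lie at or above the array's median. The question put to the data was whether mitotic genes shift between the clones, and whether such a shift follows the IDH genotype.

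Mitosis begins when CDK1 bound to a B-type cyclin becomes active, and the transcription factor FOXM1 drives many of the genes that are needed for it. Kinetochores built on the centromeres then attach the chromosomes to the spindle, and the spindle checkpoint holds back the anaphase-promoting complex (APC/C) until every chromosome is attached. The transcripts of most of these genes rise late in the cell cycle, so in proliferating cells such as a carcinoma line their level depends both on how many cells are in late cycle and on the RNA per cell, and in bulk RNA these cannot be told apart. In many of these promoters the DREAM and MuvB complexes act through an element called the cell cycle genes homology region (CHR), often with boxes that bind NF-Y.

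On the log2 scale, replicates of one clone correlated at 0.9869 to 0.9952 and arrays of different clones at 0.9501 to 0.9905. In 4 arrays (2C11 replicate 1, 8G12 replicate 2, 16F8 replicate 1 and parental replicate 1) the poly-A spike-in controls read 1.68-fold higher than in the other 14. Of 11 colorectal epithelial markers, 8 had a mean signal at or above the median of all values, and their summed signal lay between 11474.6 and 16916.1; CDX1, VIL1 and CEACAM5 were at most 8.7 in any array. Fibroblast markers summed to between 204.9 and 376.6, nearly all of it COL1A1, and COL1A2, COL3A1, DCN, LUM, THY1 and FAP were at most 6.5 in any array. Haematopoietic markers summed to between 23.2 and 155, lowest in parental and nearly all of it LYZ and HBB, while PTPRC, CD3E and CD14 were at most 4.6 in any array.

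Across the 9 clones, mitotic genes did differ, but no more often than genes at large, and the clone that stood apart most often was the parental line. By limma's moderated F test, 19 of the 40 members (47.5%) differed among the clones at an adjusted p under 0.05, against 52.4% of the 12537 genes tested. In 12 of the 40 members (30%) both parental arrays lay below all 16 other arrays, against 7.69% of all genes, and in no member did both lie above them, against 7.17%. These 12 were CDK1, FOXM1, CDCA8, BUB1, BUB1B, CENPF, KIF11, TPX2, KIF20A, KIF23, ANLN and MKI67. No other clone stood apart in this way in more than 1 member in either direction. Both 2C11 arrays were above all others for NUF2, both 2H1 arrays for TOP2A, both 3A4 arrays for MKI67 and both 8G12 arrays for AURKB. The place of 3A4 for MKI67 turned with the probe set: on 2 dimmer probe sets of the gene both 3A4 arrays lay below those of every other clone but parental. Both 3A4 arrays were below all others for CDC25C, and both 17H5 arrays for CCNB1.

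Against the parental line, more members rose than fell in each of the 8 other clones. All of these comparisons share the same 2 parental arrays. The parental line alone carries no clone name and no mutant IDH allele in its label. The part of either in the shift was not tested. In 2C11, 20 of 40 members (50%) rose, against 13.4% of all genes, and 0 fell, against 12.5%. In 2H1, 14 members (35%) rose, against 14.7% of all genes, and 0 fell, against 16.3%. In 3A4, 12 (30%) rose, against 17.6%, and 3 fell, against 19.6%. In 8G12, 9 (22.5%) rose, against 11.4%, and 2 fell, against 7.05%. In 17H5, 6 (15%) rose, against 6.89%, and 1 fell, against 4.97%. In 47C2, 15 (37.5%) rose, against 14.2%, and 0 fell, against 13.8%. In 45G3, 16 (40%) rose, against 15.1%, and 2 fell, against 14.7%. In 16F8, which does not express a mutant allele, 12 (30%) rose, against 12.4%, and 1 fell, against 9.57%.

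The median log2 change of the 40 members against parental was 0.30 in 2C11, 0.24 in 2H1 and 0.20 in 3A4. It was 0.20 in 8G12, 0.07 in 17H5, 0.245 in 45G3 and 0.21 in 47C2, and 0.22 in 16F8. Over all genes tested the median lay between -0.02 (3A4) and 0.04 (8G12). The pooled standard deviation of the members' median between replicate arrays was 0.07, which is as large as the median in 17H5. With the probe set of the highest variance for each gene, a choice that favours probe sets that vary among these arrays and left 35 members, the median was more than 1.5 times as large in all clones but 3A4. It was then 0.56 in 45G3, 0.49 in 2C11, 0.43 in 2H1, 0.40 in 47C2, 0.31 in 8G12, 0.27 in 3A4 and 0.16 in 17H5, and 0.42 in 16F8. Counts moved by more than 1.5 times when 1 array was left out in 5 clones. Members past the threshold then numbered 2 to 4 of 40 in 17H5 without any 1 of its own or the parental arrays, against 7 with all arrays, and 8 or 9 in 3A4 without either of its own, against 15. They numbered 4 in 8G12 without parental replicate 2 and 7 without 8G12 replicate 2, against 11, 8 in 47C2 without either of its own, against 15, and 7 in 16F8 without parental replicate 2, against 13. The ratio of 3′ to 5′ ACTB probe sets, a sign of RNA integrity and labelling, was 2.13 and 2.35 in the parental arrays and 1.59 to 2.29 in the other 16, and its part in the shift was not tested. The summed signal of the colorectal epithelial markers also set parental apart, with clone means of 11621 to 13701 in the other 8 clones, against 15620 in parental. Of the 8 of these markers that were tested, 2 (17H5) to 4 fell against parental in each of the 8 clones and at most 1 rose, and their part in the shift of the members was not tested either.

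**Figure D1:**
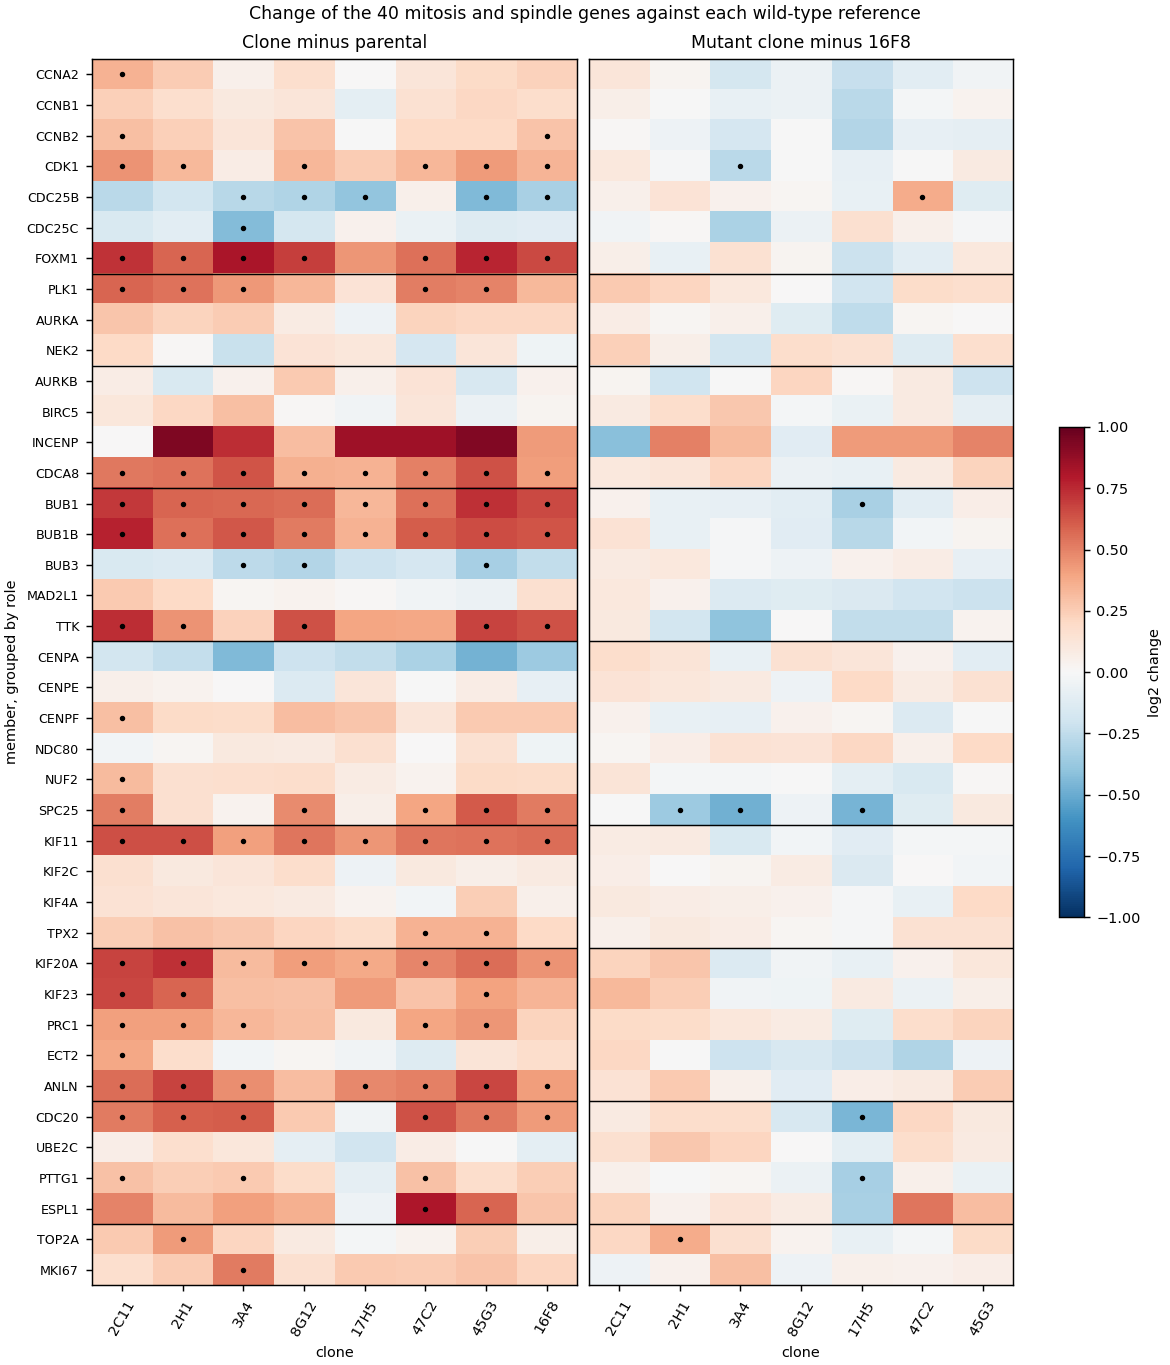
Log2 change of each of the 40 members in the 7 mutant clones and 16F8 against parental, and, in the right panel, of the mutant clones against 16F8, with members grouped by role and a dot where limma's adjusted p was under 0.05. Rows of one colour and marks across all 8 clones are seen for BUB1, BUB1B, CDCA8, KIF11 and KIF20A, while CDC25B and BUB3 run the other way in several clones.

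The members BUB1, BUB1B, CDCA8, KIF11 and KIF20A rose in all 8 clones, and their start regions hold the promoter elements known from late cell cycle genes in different arrangements. The windows printed here run from 120 bases before to 30 bases after the transcription start of the RefSeq annotation of GRCh38.p14, 5′ to 3′ on the gene's strand, and the capitals mark the core letters of the CHR, TTTGAA, and of the NF-Y box, CCAAT, on either strand. The first set holds these 5 genes, which were higher in every clone than in parental.
BUB1 (chr2:110678034-110678183, minus strand): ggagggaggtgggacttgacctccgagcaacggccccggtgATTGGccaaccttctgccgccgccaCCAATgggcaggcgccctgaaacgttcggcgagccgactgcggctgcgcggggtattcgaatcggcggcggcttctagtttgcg
BUB1B (chr15:40160949-40161098, plus strand): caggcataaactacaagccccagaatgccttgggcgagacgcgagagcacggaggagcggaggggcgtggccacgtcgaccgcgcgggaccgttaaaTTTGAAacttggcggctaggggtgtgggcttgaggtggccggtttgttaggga
CDCA8 (chr1:37692396-37692545, plus strand): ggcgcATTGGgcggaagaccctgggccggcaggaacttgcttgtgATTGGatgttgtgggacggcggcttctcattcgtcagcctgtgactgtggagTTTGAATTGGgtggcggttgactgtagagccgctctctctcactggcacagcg
KIF11 (chr10:92593010-92593159, plus strand): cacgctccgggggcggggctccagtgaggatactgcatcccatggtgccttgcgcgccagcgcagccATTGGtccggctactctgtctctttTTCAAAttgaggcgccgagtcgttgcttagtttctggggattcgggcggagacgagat
KIF20A (chr5:138178992-138179141, plus strand): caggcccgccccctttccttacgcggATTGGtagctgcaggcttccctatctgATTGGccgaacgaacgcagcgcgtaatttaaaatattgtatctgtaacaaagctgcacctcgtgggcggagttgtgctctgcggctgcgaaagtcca
In CDCA8 the CHR letters and a reversed NF-Y box overlap by 1 base. The second set holds members that rose in some of the 8 clones and not in others.
CDC20 (chr1:43358861-43359010, plus strand): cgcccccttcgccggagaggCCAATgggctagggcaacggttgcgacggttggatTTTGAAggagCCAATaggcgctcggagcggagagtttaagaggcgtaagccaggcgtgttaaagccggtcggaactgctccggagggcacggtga
SPC25 (chr2:168890401-168890550, minus strand): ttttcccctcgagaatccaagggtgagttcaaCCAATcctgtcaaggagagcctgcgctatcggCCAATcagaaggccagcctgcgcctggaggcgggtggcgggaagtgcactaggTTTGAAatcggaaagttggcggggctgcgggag
PLK1 (chr16:23678769-23678918, plus strand): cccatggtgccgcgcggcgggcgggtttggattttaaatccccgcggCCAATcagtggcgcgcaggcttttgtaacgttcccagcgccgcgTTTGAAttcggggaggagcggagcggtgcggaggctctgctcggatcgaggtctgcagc
The third set holds some of the members that passed in no clone on the probe sets used. Others of these, CENPA, INCENP, NDC80, KIF4A and MAD2L1, hold TTTGAA on either strand within the same span around a start.
CCNB1 (chr5:69167030-69167179, plus strand): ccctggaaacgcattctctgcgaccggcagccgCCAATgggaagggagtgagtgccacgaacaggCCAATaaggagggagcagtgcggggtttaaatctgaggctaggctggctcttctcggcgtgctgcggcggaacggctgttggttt
KIF2C (chr1:44739717-44739866, plus strand): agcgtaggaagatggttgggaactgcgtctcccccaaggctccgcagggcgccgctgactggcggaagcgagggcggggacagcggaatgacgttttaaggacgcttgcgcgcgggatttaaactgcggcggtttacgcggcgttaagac
CENPE (chr4:103198314-103198463, minus strand): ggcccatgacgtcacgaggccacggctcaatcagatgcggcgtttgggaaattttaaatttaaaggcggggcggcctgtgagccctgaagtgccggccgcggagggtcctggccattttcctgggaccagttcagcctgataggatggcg

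Promoters were found for 33 of the 40 members; those of AURKA, TPX2, FOXM1, UBE2C, BIRC5, TTK and BUB3 were not used here. In the whole window of 250 bases before to 50 after the start, 23 of the 33 members (69.7%) held TTTGAA on either strand, against 18.17% of all genes with a promoter and 15.16% of all promoters. Within the 60 bases before the start it was held by 17 of the 33 members (51.52%), against 3.79% of all genes. The NF-Y letters were held by 27 of 33 members (81.82%), against 39.72% of all genes, and within the 60 bases before the start by 20 (60.61%), against 12.22%. Among like genes outside the 40 the share varied. Of 24 other spindle and cytokinesis genes, 18 held TTTGAA (75%) and 20 held CCAAT (83.33%), with TTTGAA within the 60 bases before the start in 7 (29.17%). TTTGAA was held by 7 of 15 condensin and cohesin genes (46.67%), by 7 of 21 other kinetochore and centromere genes (33.33%) and by 1 of 30 genes of G1/S and DNA replication (3.33%), which peak earlier in the cycle. CCAAT was held by 8 (53.33%), 15 (71.43%) and 19 (63.33%) of these genes. The mean log2 change over the 8 clones had a median of 0.32 in the 23 members with TTTGAA, ranging from -0.31 to 0.63, and of 0.11 in the 10 members without it, ranging from -0.27 to 0.59. The changes of members with and without the letters thus overlapped over nearly their whole range. BUB1 and KIF20A, which passed in every clone, held no TTTGAA in the printed window, and PLK1, which did, passed in 5 clones of 8. Only the exact letters TTTGAA and CCAAT were searched, so other forms of either element would not be counted. The part of either element in the shift was not tested.

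**Figure D2:**
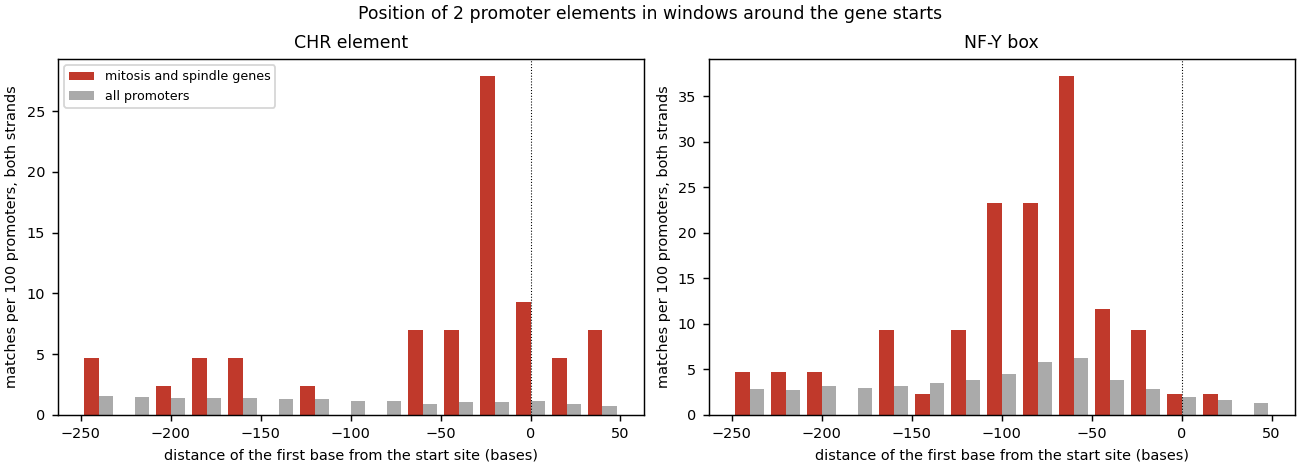
Matches to the CHR and to the NF-Y box per 100 promoters in bins of 20 bases, by distance from the transcription start, for the promoters of the members and for all 35116 promoters. The CHR letters of the members gathered between 30 and 10 bases before the start, at 27.9 per 100 promoters against 1.02 for all promoters, and the NF-Y letters between 70 and 50 bases before it, at 37.2 against 6.29.

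Among the genes of mitotic entry, FOXM1 and CDK1 rose in most clones while CDC25B fell. FOXM1, the transcription factor of the late cell cycle, had signals of 470.5 and 519.5 in 2C11, 398.5 and 507.4 in 2H1, and 568.8 and 489.0 in 3A4. It had 503.1 and 463.5 in 8G12, 421.8 and 394.1 in 17H5, 444.7 and 433.3 in 47C2, and 447.2 and 579.1 in 45G3. The references gave 437.8 and 512.4 in 16F8 and 320.2 and 279.0 in parental. Both parental arrays were below every other array, and the other 16 arrays lay between 394.1 and 579.1. FOXM1 rose against parental in all clones but 17H5 (0.45, adjusted p = 0.0503), by log2 changes between 0.55 (47C2) and 0.81 (3A4). FOXM1 has a single probe set here, of a class (_x_at) whose probes may also match other transcripts, and the probe sets of PTTG1 and CENPA are of the same class. CDK1, the kinase of mitotic entry, averaged between 1554 ± 37.4 (17H5; SD, n = 2) and 1775 ± 41.2 (2C11) in 6 of the 7 mutant clones and 1369 ± 52.3 in 3A4, against 1647 ± 88.2 in 16F8 and 1300 ± 4.31 in parental. It rose in all clones but 3A4 and 17H5, by 0.33 to 0.45. The cyclin partners moved less: CCNB2 rose in 2C11 (0.30) and 16F8 (0.29), CCNA2 rose in 2C11 (0.35), and CCNB1 passed in no clone, with changes between -0.10 and 0.24. CDC25B, a phosphatase that activates CDK1, averaged 1155 ± 7.28 in 45G3, 1199 ± 58.0 in 17H5, 1283 ± 193 in 8G12 and 1296 ± 2.26 in 3A4, against 1262 ± 116 in 16F8 and 1574 ± 81.8 in parental. It fell against parental in these 4 mutant clones and in 16F8, by log2 changes between -0.28 (3A4) and -0.45 (45G3), while in 47C2 it averaged 1632 ± 18.5. CDC25C, the related phosphatase, fell in 3A4 alone among the 8 clones (-0.44 ± 0.15, SE; adjusted p = 0.0277).

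Of the mitotic kinases, PLK1 rose in 5 clones, while AURKA passed on its dimmer probe sets but not on its brightest. PLK1, which acts in entry, spindle assembly and cytokinesis, had signals of 209.5 and 225.1 in 2C11, 209.6 and 211.0 in 2H1, and 187.2 and 203.2 in 3A4. It had 188.6 and 175.5 in 8G12, 187.3 and 133.9 in 17H5, 205.8 and 207.1 in 47C2, and 203.4 and 204.4 in 45G3. The references gave 177.1 and 185.1 in 16F8 and 139.3 and 148.9 in parental. The replicates of 17H5 lay apart, 1 below both parental arrays and 1 above both 16F8 arrays. PLK1 rose in 2C11 (0.59), 2H1 (0.54), 3A4 (0.43), 47C2 (0.51) and 45G3 (0.50). AURKA, the centrosomal Aurora kinase, and NEK2, a kinase of centrosome separation, passed in no clone on their brightest probe sets, with changes from -0.05 to 0.28 for AURKA and from -0.23 to 0.20 for NEK2. On the other 2 probe sets of AURKA both parental arrays lay below all 16 other arrays. One of them changed by 0.13 to 0.50 and passed in all clones but 8G12 and 17H5, and the other changed by 0.35 to 0.67 and passed in all clones but 17H5.

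In the chromosomal passenger complex, which corrects wrong attachments and then moves to the spindle midzone, only the borealin gene CDCA8 passed on the brightest probe sets. CDCA8 had signals of 628.3 and 651.8 in 2C11, 619.6 and 676.5 in 2H1, and 715.2 and 664.3 in 3A4. It had 608.8 and 532.1 in 8G12, 558.7 and 572.0 in 17H5, 649.4 and 616.2 in 47C2, and 670.4 and 715.7 in 45G3. The references gave 587.4 and 600.6 in 16F8 and 448.2 and 440.6 in parental. No array of any other clone came down to the parental level, and the changes ran from 0.35 ± 0.10 in 17H5 to 0.64 ± 0.10 in 45G3 (SE; adjusted p = 0.0258 and 0.000108). The call was lost in 17H5 without any 1 of its own or the parental arrays, and in 8G12 without 8G12 replicate 1 or parental replicate 2. AURKB, the kinase of the complex, changed by -0.16 to 0.26 and BIRC5 (survivin) by -0.06 to 0.30, and neither passed in any clone on its brightest probe set. On a dimmer probe set BIRC5 passed in every clone, and its change varied with the probe set. INCENP, the scaffold of the complex, was dim, with array signals between 6.9 and 25.1, and its changes of 0.01 to 0.93 passed in no clone.

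Of the spindle checkpoint genes, BUB1 and BUB1B rose in every clone and TTK in most. BUB1, a checkpoint kinase of the kinetochore, had signals of 745.0 and 773.5 in 2C11, 665.3 and 733.8 in 2H1, and 697.7 and 693.6 in 3A4. It had 693.1 and 677.7 in 8G12, 626.7 and 550.5 in 17H5, 698.7 and 669.5 in 47C2, and 770.9 and 774.3 in 45G3. The references gave 749.5 and 722.6 in 16F8 and 456.6 and 474.3 in parental. The parental arrays were lowest, those of 17H5 came next, and the remaining mutant arrays lay between 665.3 and 774.3, on both sides of 16F8. BUB1 rose by 0.33 ± 0.09 in 17H5 (adjusted p = 0.025) to 0.73 ± 0.09 in 45G3 (adjusted p = 2e-05), and by 0.66 in 16F8. BUB1B (BUBR1), which binds and inhibits the APC/C activator, rose by 0.35 in 17H5 to 0.77 in 2C11, and averaged between 802.5 ± 2.62 (17H5) and 1075 ± 56.1 (2C11) in the mutant clones, against 974.1 ± 44.3 in 16F8 and 629.6 ± 45.5 in parental. TTK (MPS1), the kinase at the head of the checkpoint, rose in 2C11 (0.74), 2H1 (0.45), 8G12 (0.64), 45G3 (0.67) and 16F8 (0.64). MAD2L1, which forms the inhibitory complex, changed by -0.06 to 0.26 and passed in no clone on its brightest probe set, though another passed in most clones. For BUB3, the partner of both BUB proteins, the probe set used fell in 3A4 (-0.26), 8G12 (-0.30) and 45G3 (-0.33), but another of its probe sets ran the other way. In 17H5 the calls of BUB1 and BUB1B were lost without some single arrays of 17H5 or parental; the estimates were then 0.24 to 0.36. With the mean over all its probe sets, BUB1 no longer passed in 8G12 (0.37), 17H5 (0.25) and 47C2 (0.34).

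**Figure D3:**
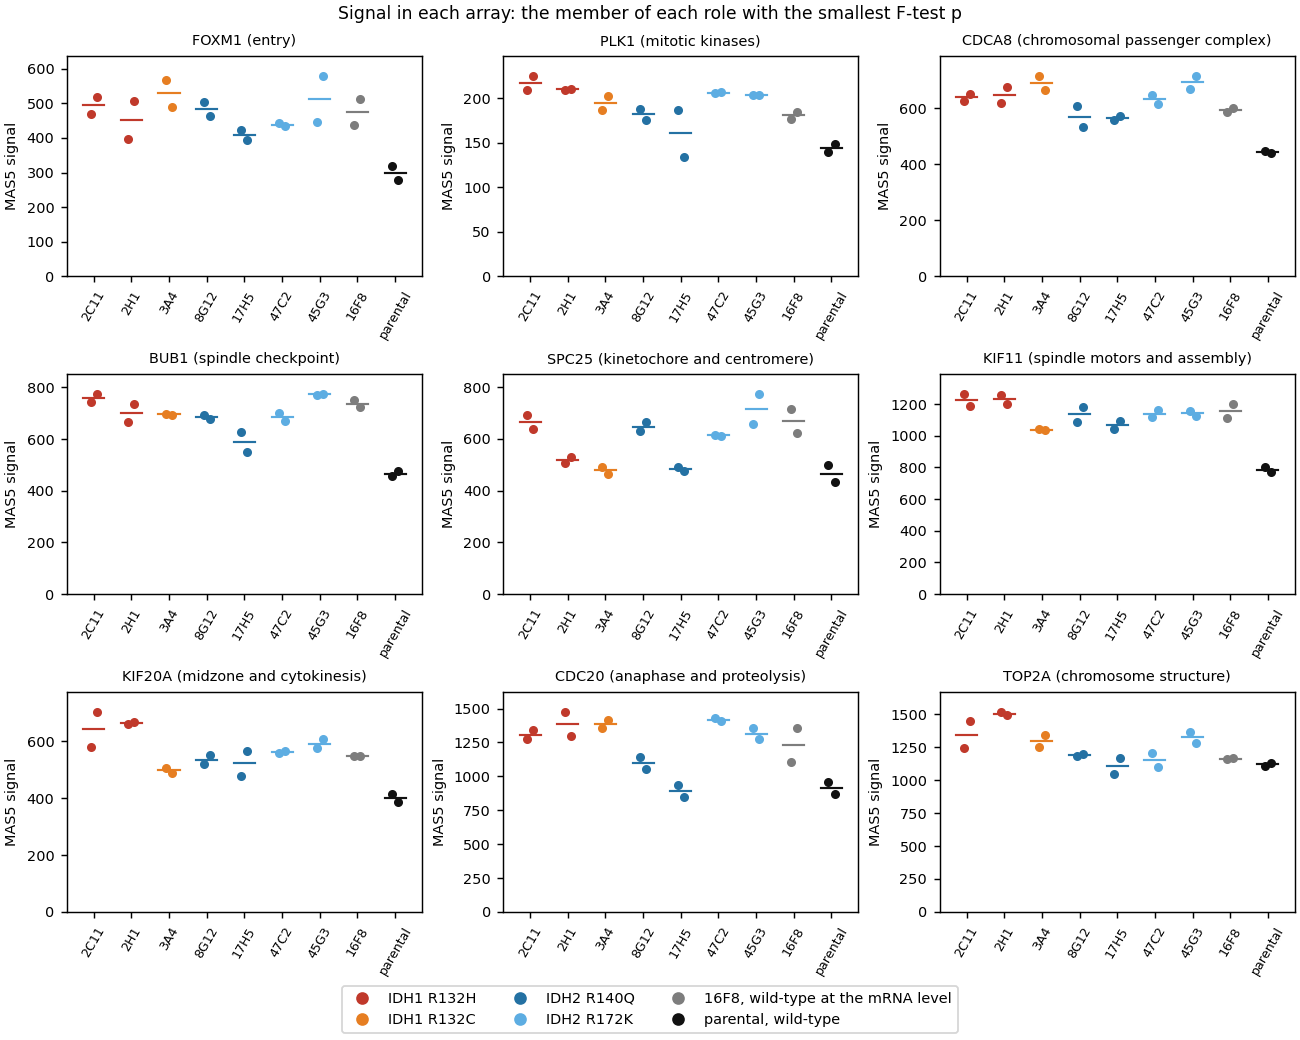
Signal of the member with the smallest F test p-value of each role in every array, on linear axes that start at 0, with the clones in the order 2C11, 2H1, 3A4, 8G12, 17H5, 47C2, 45G3, 16F8 and parental and 2 points for the replicates of each clone. The parental points lie lowest for FOXM1, CDCA8, BUB1, KIF11 and KIF20A, the 17H5 points lie near the parental points for SPC25 and CDC20, and those of 2H1 lie highest for TOP2A.

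Among the kinetochore and centromere genes, SPC25 rose in 5 clones and each of the others passed in none or 1 on the probe set used. SPC25, a subunit of the NDC80 complex that binds microtubules, had signals of 691.0 and 638.1 in 2C11, 508.2 and 530.4 in 2H1, and 492.3 and 463.3 in 3A4. It had 628.5 and 663.2 in 8G12, 492.9 and 474.7 in 17H5, 614.2 and 611.9 in 47C2, and 658.7 and 773.5 in 45G3. The references gave 713.5 and 623.7 in 16F8 and 498.8 and 433.1 in parental. The clones thus fell into those near parental, 2H1, 3A4 and 17H5, and those near 16F8, 2C11, 8G12, 47C2 and 45G3, with no overlap between these arrays. SPC25 rose against parental in 2C11 (0.51), 8G12 (0.47), 47C2 (0.40), 45G3 (0.62) and 16F8 (0.52). The other subunits of the same complex did not share this pattern: NDC80 changed by -0.05 to 0.16 and passed in no clone, and NUF2 rose in 2C11 alone of the 8 (0.31). CENPF, an outer kinetochore protein, rose in 2C11 (0.30). CENPE, the kinetochore motor, changed by -0.14 to 0.12, and CENPA, the histone of centromeric chromatin, by -0.47 to -0.19, and neither passed. A further, brighter probe set that matches CENPA together with another gene was not used.

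Of the spindle motors, KIF11 rose in every clone. KIF11 (Eg5), the motor that pushes the spindle poles apart, had signals of 1263.8 and 1187.9 in 2C11, 1259.5 and 1198.9 in 2H1, and 1042.5 and 1036.1 in 3A4. It had 1088.4 and 1180.4 in 8G12, 1039.7 and 1093.6 in 17H5, 1118.4 and 1159.5 in 47C2, and 1157.3 and 1126.7 in 45G3. The references gave 1111.8 and 1202.8 in 16F8 and 799.7 and 767.8 in parental. The gap between the higher parental array and the lowest other array was wider than the range within any clone. The changes ran from 0.41 ± 0.09 in 3A4 (adjusted p = 0.00134) to 0.65 ± 0.09 in 2H1 (adjusted p = 2.1e-05), and no alternative setting or left-out array ended any of the 8 calls. TPX2, which targets Aurora A to the spindle, rose in 47C2 (0.35) and 45G3 (0.35). KIF2C (MCAK), a microtubule depolymerase, changed by -0.05 to 0.18 and KIF4A, a chromosome-bound motor, by -0.03 to 0.25, and neither passed in any clone.

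All 5 genes of the midzone and cytokinesis differed among the clones by the F test, as did 52.4% of all genes. KIF20A (MKLP2), the motor that carries the passenger complex to the midzone, had signals of 581.2 and 703.9 in 2C11, 660.8 and 669.5 in 2H1, and 507.9 and 489.2 in 3A4. It had 518.9 and 550.5 in 8G12, 478.2 and 567.5 in 17H5, 559.5 and 567.2 in 47C2, and 575.4 and 608.2 in 45G3. The references gave 546.8 and 547.8 in 16F8 and 415.0 and 386.2 in parental. Every array of the other clones was above both parental arrays. KIF20A rose by 0.31 ± 0.11 in 3A4 (adjusted p = 0.0297) to 0.73 ± 0.11 in 2H1 (adjusted p = 6.72e-05), and by 0.45 in 16F8. Its calls in 3A4, 8G12, 17H5 and 16F8 were lost without parental replicate 2 (0.26, 0.36, 0.33 and 0.40), and that in 17H5 also under quantile normalization (0.33). ANLN (anillin), which organises the contractile ring, averaged between 1168 ± 28.5 (3A4) and 1351 ± 49.3 (2H1) in 6 mutant clones and 1049 ± 111 in 8G12, against 1135 ± 159 in 16F8 and 849.2 ± 99.3 in parental. It rose in all clones but 8G12, by 0.41 in 16F8 to 0.67 in 2H1. ECT2, the exchange factor that activates RhoA for cytokinesis, averaged 1507 ± 227 in 2C11 and between 1053 ± 45.4 (47C2) and 1296 ± 75.4 (2H1) in the other mutant clones, against 1300 ± 15 in 16F8 and 1148 ± 20.7 in parental. It rose in 2C11 alone of the 8 clones on this probe set (0.38). PRC1, which bundles the microtubules of the midzone, rose in 2C11 (0.41), 2H1 (0.41), 3A4 (0.33), 47C2 (0.40) and 45G3 (0.44). KIF23 (MKLP1), a motor of the centralspindlin complex, rose in 2C11 (0.66), 2H1 (0.58) and 45G3 (0.40).

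Of the genes of anaphase and mitotic proteolysis, CDC20 separated 17H5 from most other clones. CDC20, the activator of the APC/C that the checkpoint inhibits, had signals of 1272.0 and 1342.6 in 2C11, 1476.2 and 1297.1 in 2H1, and 1360.0 and 1414.5 in 3A4. It had 1145.0 and 1052.7 in 8G12, 933.5 and 850.0 in 17H5, 1428.8 and 1406.5 in 47C2, and 1355.5 and 1274.7 in 45G3. The references gave 1106.4 and 1357.1 in 16F8 and 958.5 and 869.9 in parental. The 17H5 arrays overlapped with the parental arrays, and all other arrays were higher than both. CDC20 rose against parental in 2C11 (0.52), 2H1 (0.60), 3A4 (0.60), 47C2 (0.63), 45G3 (0.52) and 16F8 (0.42), and not in 8G12 (0.27) or 17H5 (-0.04). PTTG1 (securin), which holds separase inactive, averaged 1652 ± 178 in 17H5 and between 1980 ± 87.5 (45G3) and 2156 ± 243 (2C11) in the other mutant clones, against 2077 ± 44.3 in 16F8 and 1756 ± 116 in parental. It rose in 2C11 (0.29), 3A4 (0.26) and 47C2 (0.29). ESPL1 (separase), the protease that cuts cohesin, rose in 47C2 (0.81) and 45G3 (0.59). UBE2C, the ubiquitin-conjugating enzyme of the APC/C, changed by -0.19 to 0.17 and passed in no clone.

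On their brightest probe sets the genes of chromosome structure set single clones apart. TOP2A, the topoisomerase that untangles sister chromatids, had signals of 1241.2 and 1447.4 in 2C11, 1518.5 and 1491.7 in 2H1, and 1251.5 and 1344.9 in 3A4. It had 1185.1 and 1194.9 in 8G12, 1046.6 and 1164.8 in 17H5, 1202.5 and 1098.5 in 47C2, and 1368.5 and 1283.6 in 45G3. The references gave 1157.4 and 1168.5 in 16F8 and 1109.6 and 1128.3 in parental. Both 2H1 arrays were above every other array, and TOP2A rose in 2H1 alone of the 8 clones on this probe set (0.43 ± 0.09, SE; adjusted p = 0.00226). MKI67 (Ki-67), the coat protein of mitotic chromosomes and a common marker of proliferation, averaged 893.0 ± 60.3 in 3A4 and between 698.0 ± 78.6 (8G12) and 762.7 ± 120 (45G3) in the other mutant clones, against 726.8 ± 108 in 16F8 and 623.0 ± 5.45 in parental. It rose in 3A4 alone of the 8 clones on this probe set (0.52 ± 0.12; adjusted p = 0.00356). On 2 other MKI67 probe sets 3A4 was instead the lowest of the 8 clones. The first had signals of 153.2 and 163.0 in 3A4 and at least 199.9 in the other 7 clones, against 149.4 and 110.3 in parental. The second had 213.7 and 169.8 in 3A4 and at least 247.1 in the other 7, against 155.4 and 169.2 in parental. On both, every clone but 3A4 passed.

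Against clone 16F8, few members differed. In 2C11, 0 members rose, against 0.981% of all genes, and 0 fell, against 1.28%; in limma's unadjusted test 2 of 40 had a p under 0.05, against 13.1% of all genes. In 8G12, 0 rose, against 0.526%, and 0 fell, against 0.104%, with 0 at an unadjusted p under 0.05, against 6.69%. In 45G3, 0 rose, against 0.949%, and 0 fell, against 1.22%, with 1 at an unadjusted p under 0.05, against 14% of all genes. In 2H1, TOP2A rose (0.37 ± 0.09, SE; adjusted p = 0.0121) and SPC25 fell (-0.36 ± 0.11; adjusted p = 0.0298), against 6.44% of genes higher and 10% lower. In 3A4, SPC25 fell (-0.48 ± 0.11; adjusted p = 0.00317), CDK1 fell (-0.27 ± 0.09; adjusted p = 0.0422) and 0 rose, against 16% lower and 10.3% higher. In 47C2, CDC25B rose (0.37 ± 0.10; adjusted p = 0.0333) and 0 fell, against 2.28% higher and 4.13% lower.

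In 17H5, 4 members fell against 16F8 and 0 rose, against 4.13% of genes lower and 4.42% higher. They were SPC25 (-0.46 ± 0.11, SE; adjusted p = 0.0132), CDC20 (-0.46 ± 0.11; 0.0125), PTTG1 (-0.33 ± 0.10; 0.0429) and BUB1 (-0.32 ± 0.09; 0.0363). The median log2 change of the 40 members against 16F8 was 0.09 in 2C11, 0.05 in 2H1, 0.01 in 3A4, -0.09 in 17H5, -0.02 in 8G12, 0.06 in 45G3 and 0.03 in 47C2, while over all genes it lay between -0.04 and 0.02. These calls rested on few arrays: 0 remained in 17H5 without 17H5 replicate 2 and 1 without either 16F8 array, and 0 remained without 16F8 replicate 1 in 2H1, 3A4 and 47C2. Without either 47C2 array, which enter only through the shared variance, 2 remained in 17H5 and 1 in 3A4. In 2H1 and 47C2 0 remained without either of the clone's own arrays, and 1 remained in 3A4 without 3A4 replicate 2. When the 4 arrays of high poly-A signal were given their own term, 10 members (25%) fell in 17H5, against 13.2% of all genes past the threshold in either direction, and 5 (12.5%) in 3A4, against 29%. The part of that handling in the difference was not tested. Other alternatives cut the calls. Without a trend in the variance, 2 remained in 17H5 (7.22% of all genes passed), 1 in 3A4 (24.6%) and 0 in 47C2 (5.72%). Without the filter on dim probe sets, 1 remained in 3A4 (14.9%) and 0 in 47C2 (3.02%).

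**Figure D4:**
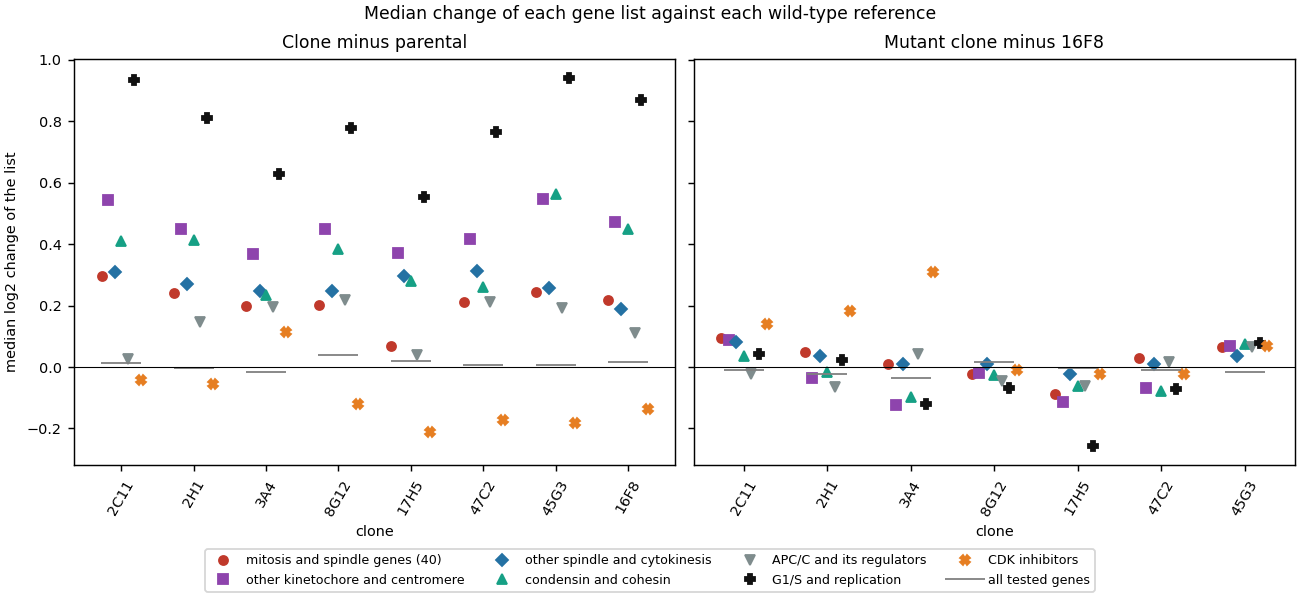
Median log2 change of the 40 members and of related gene lists in each clone against parental and, for the mutant clones, against 16F8. Against parental the G1/S and replication genes had medians between 0.55 (17H5) and 0.94 (45G3) and the members between 0.07 (17H5) and 0.30 (2C11), and against 16F8 the medians of the members lay between -0.09 and 0.09.

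With all arrays and the settings used throughout, clones of the same genotype differed in at most 1 member. Between 2H1 and 2C11, both IDH1 R132H/+, 0 members rose, against 2.14% of all genes, and 0 fell, against 2.46%, with 3 of 40 at an unadjusted p under 0.05, against 17.8%. Without either 45G3 array, 1 member passed. Between 17H5 and 8G12, both IDH2 R140Q/+, SPC25 fell (-0.41 ± 0.11, SE; adjusted p = 0.0441), against 1.79% of genes lower, and 0 rose, against 1.58%. This call was lost in 10 of the 18 fits that left out 1 array, among them those without either 17H5 or either 8G12 array. It was also lost without a trend in the variance (0 members, against 2.57% of all genes) and without the filter (0, against 1.47%). With the highest-variance probe sets it was lost too (0, against 2.96%). With the poly-A term 3 members fell, against 6.46% of all genes past the threshold in either direction. Between 47C2 and 45G3, both IDH2 R172K/+, CDC25B rose (0.50 ± 0.10; adjusted p = 0.0102), against 1.06% of genes higher, and 0 fell, against 1.88%. It was lost without either 47C2 array and without 45G3 replicate 2. CDC25B had signals of 1619.2 and 1645.3 in 47C2, against 1159.7 and 1149.4 in 45G3, with no overlap.

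By genotype, with the clone as the replicate, no member passed. Against the 2 wild-type clones, 16F8 and parental, limma called 0 members in the 7 mutant clones, 0 in the 3 IDH1-mutant clones and 0 in the 4 IDH2-mutant clones, and in each comparison 0% of all genes in either direction. At an unadjusted p under 0.05 there were 2 members in the mutant clones, against 6.89% of all genes, 6 in the IDH1-mutant clones, against 15.3%, and 0 in the IDH2-mutant clones, against 5.05%. The median log2 change of the members was 0.09 in the mutant clones, 0.15 in the IDH1-mutant clones and 0.09 in the IDH2-mutant clones. The members with the smallest p-values were ANLN in the mutant clones (0.31 ± 0.12, SE; adjusted p = 0.682), TOP2A in the IDH1-mutant clones (0.27 ± 0.10; adjusted p = 0.254) and ANLN in the IDH2-mutant clones (0.28 ± 0.13; adjusted p = 0.891). The IDH2-mutant clones against the IDH1-mutant clones likewise gave 0 members, against 0.00798% of genes higher and 0% lower, with 3 of 40 at an unadjusted p under 0.05, against 13.2%. BIRC5 led that comparison, with a change of -0.20 ± 0.06 and an adjusted p of 0.25. The 2 wild-type clones themselves differed in 13 members. In 16F8, 12 of these were higher than in parental, against 12.4% of all genes, and 1 was lower, against 9.57%.

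Of the related gene lists, that of G1/S and replication rose most often, and the others differed in how far they stood from genes at large. All of these lists were chosen with earlier results of these data known. Over all genes, between 6.89% (17H5) and 17.6% (3A4) rose against parental and between 4.97% (17H5) and 19.6% (3A4) fell. Of 37 genes of G1/S and replication, between 25 (67.6%, 17H5) and 35 (94.6%, 2H1) rose and 0 fell in any of the 8 clones; in 16F8, 33 (89.2%) rose. Their median change was 0.93 in 2C11, 0.81 in 2H1, 0.63 in 3A4, 0.55 in 17H5, 0.78 in 8G12, 0.94 in 45G3, 0.76 in 47C2 and 0.87 in 16F8. E2F2, a transcription factor of this group, rose in all 8 clones by 0.92 to 1.47, and CDC25A, the phosphatase of S phase entry, rose in all clones but 17H5, by 1.08 to 1.58. FEN1, a nuclease of the replication fork, rose in all clones but 17H5, by 0.83 to 0.98. These medians, like those of the members beside them, are of the brightest probe set of each gene. Against 16F8, 10 of the 37 (27%) fell in 17H5, against 4.13% of all genes, and 0 rose, against 4.42%, with a median of -0.26. In 3A4, 5 (13.5%) fell, against 16%, and 1 (2.7%) rose, against 10.3%, and in 2H1 1 fell and 2 rose.

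Of 26 further kinetochore and centromere genes tested, between 12 (46.2%, 17H5) and 18 (69.2%, 45G3) rose against parental and at most 1 (3.85%) fell, against the shares of all genes just given. CENPI, a subunit of the constitutive centromere network, rose by 0.74 in 17H5 to 1.96 in 3A4, and HJURP, the chaperone that loads CENPA, rose by 0.40 in 16F8 to 1.00 in 45G3. Of 25 further spindle and cytokinesis genes, between 8 (32%, in 8G12, 17H5 and 16F8) and 13 (52%, 2C11) rose and 0 fell. TACC3, a spindle protein, rose by 0.74 in 16F8 to 1.21 in 3A4, and DLGAP5 (HURP), which stabilises spindle fibres, rose by 0.30 in 17H5 to 0.68 in 2C11. Of 18 condensin and cohesin genes, between 7 (38.9%, 17H5 and 47C2) and 11 (61.1%, 45G3) rose and up to 3 (16.7%, 47C2) fell; ESCO2, a cohesin acetyltransferase, rose by 0.74 in 17H5 to 1.43 in 2H1. Of 12 DREAM and MuvB genes, between 3 (25%) and 5 (41.7%, 2H1) rose and up to 3 (25%, 2H1 and 3A4) fell. MYBL2, which joins MuvB to activate mitotic genes, rose by 0.53 in 3A4 to 1.34 in 2C11, and E2F5, of the same list, fell in 6 clones, by up to -0.89 in 2H1. Of 16 other entry kinases and phosphatases, between 2 (12.5%, 17H5) and 8 (50%, 3A4 and 47C2) rose and up to 2 (12.5%, 45G3) fell. MASTL (Greatwall), which blocks the phosphatase opposing CDK1, rose in all 8 clones by 0.59 to 1.18. Of 18 APC/C genes, 1 (5.56%) rose in 17H5, against 6.89% of all genes, and 2 (11.1%) in 8G12, against 11.4%. In the other clones 5 to 7 (27.8% to 38.9%) rose, and up to 3 (16.7%) fell in any clone. TRIP13, which recycles the checkpoint complex, rose by 0.37 to 0.74, and ANAPC16, a subunit, fell in 6 clones. Of 7 CDK inhibitors tested, 0 to 2 (28.6%, 3A4) rose and 1 or 2 (14.3% or 28.6%) fell, with medians of -0.21 (17H5) to 0.11 (3A4). CDKN2B (p15), an inhibitor of G1 kinases, fell in every clone except 3A4, where its change was 0.11, by -1.03 in 47C2 to -1.77 in 16F8.

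The probe set chosen for a gene set how large its change was. This was looked at after the values were seen. Of the 74 member probe sets tested, 41 rose against parental in 2C11, against 11.7% of all probe sets, 36 in 2H1, against 13.8%, and 27 in 3A4, against 16.6%. In 8G12 21 rose, against 8.74%, in 17H5 17, against 5.67%, in 47C2 34, against 12.4%, in 45G3 36, against 13.6%, and in 16F8 29, against 9.91%. Several members that passed in no clone or 1 clone on their brightest probe set passed in 7 or 8 on a dimmer one. For MKI67 the brightest gave changes of 0.16 to 0.52. The dimmer ones gave 0.36 to 0.83, 0.23 to 1.08 and 0.30 to 1.15, each past the threshold in 7 clones, and 3A4 was the clone that did not pass on the last 2. For AURKA the brightest gave -0.05 to 0.28 and a dimmer one 0.35 to 0.67, past the threshold in 7 clones, and for ECT2 the brightest gave -0.13 to 0.38 and a dimmer one 0.24 to 0.74, likewise in 7. For TOP2A the dimmer of 2 probe sets passed in 4 clones, 2C11, 2H1, 3A4 and 45G3. For BIRC5 the brightest gave -0.06 to 0.30 and a dimmer one 0.40 to 0.75, past the threshold in all 8 clones, while another dimmer one gave -0.14 to 0.10. For MAD2L1 the brightest gave -0.06 to 0.26 and another 0.29 to 0.76, past the threshold in 7 clones. For BUB3 the brightest of 6 probe sets gave -0.33 to -0.14 and another 0.20 to 0.72, past the threshold in 7 clones, so that the direction of BUB3 depended on the probe set. In NDC80, KIF2C and UBE2C no probe set passed in any clone, and KIF11, CDCA8, BUB1B, KIF20A, FOXM1, CDC20 and SPC25 have a single probe set.

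**Figure D5:**
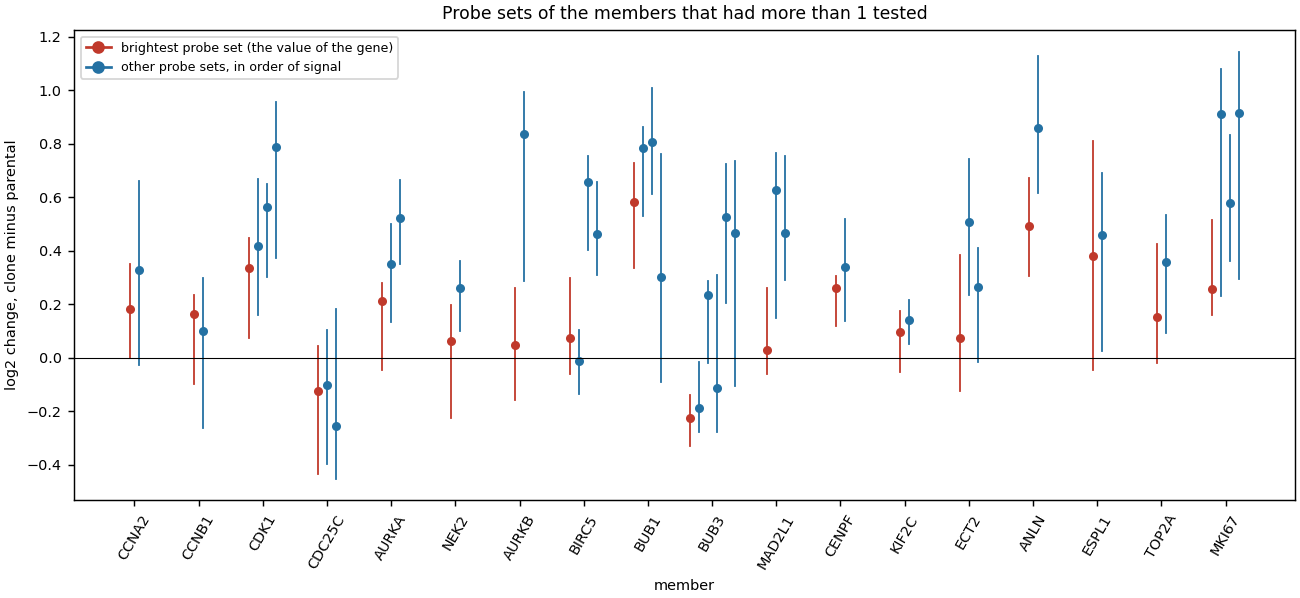
Log2 change against parental of each tested probe set of the members with more than 1; the line is the range over the 7 mutant clones and 16F8, the point their median, and red the brightest probe set of each gene. The brightest probe set lies below most others for MKI67, BIRC5, MAD2L1 and ANLN, and BUB3 has probe sets on both sides of 0.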

How the data were processed

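RNA of 18 samples was amplified, labelled with biotin and measured on 1-colour Affymetrix arrays. The deposited values are probe set intensities, MAS5 signals per the submitters' processing notes, whose version and options are not given in the sources used. Every array had a trimmed mean of 150, so the signals came scaled. Of 54675 probe sets, 41091 carry 1 gene symbol in the platform annotation, 1801 several and 11721 none, and 62 are controls.

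Signals were taken as log2(signal + 2.2), the 25th percentile of all values being 2.2. The brightest probe set stood for its gene, and it entered the tests where at least 1 clone had both arrays at or above the array median (12537 genes). Tests of single probe sets used the same filter (24620). Two-sided tests used limma 3.58.1 in R 4.3.3 (lmFit, eBayes with a trend), adjusted by Benjamini-Hochberg over all tested genes with a threshold of 0.05. Clones were compared on arrays (9 residual degrees of freedom) and genotypes on clone means; nothing states whether replicates were separate cultures beyond the label, so p-values measure the spread between these arrays. "Rose" and "fell" mean an adjusted p under 0.05; the errors given are standard errors for log2 changes and standard deviations of 2 arrays for signals. The number of arrays limits the precision. Arrays of the same replicate number deviated together at correlations of -0.352 to 0.383 over 36 pairs of clones, and the replicate numbers were not taken to pair them.

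The members and gene lists were chosen with earlier results of these data known. Values in every array are given for the member of each role with the smallest F test p, values by clone or changes for the next of each role and for those past the threshold, and up to 3 genes of every other list. Promoters are those of RefSeq (GRCh38.p14), 35116 in all. The fits were tested on simulated data. For 2C11 against parental, 28 of 100 genes changed by 0.5 log2 were called, and 77 of 100 changed by 1. For the mutant against the wild-type clones, 136 of 200 genes changed by 1 were called. Far fewer genes changed there than between these clones and parental, so the shares need not hold here. Changes under 0.5 were not simulated. The alternatives were other offsets, filters, probe sets and variance models, quantile normalization, a poly-A term, a replicate block and leaving out arrays or clones.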

Additional observations from a re-analysis of the deposited data

Results flagged for a closer look

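For each of the 40 members, the clone means of the 7 mutant clones and of the 4 IDH2-mutant clones were searched for a clone far from the rest by Dixon's test, 80 groups in all. It marked 7, where chance alone marks about 1 in 20. The 4 IDH2-mutant clones are also among the 7 mutant clones, so the groups are not independent. Values are log2(signal + 2.2).

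Clone 17H5 was the low clone in 4 of the 7. Among the 7 mutant clones, CCNB1 had a mean of 10.95 in 17H5 with the next clone at 11.15, PRC1 had 9.43 with the next at 9.63, and PTTG1 had 10.69 with the next at 10.95. Among the 4 IDH2-mutant clones, KIF11 had 10.06 in 17H5 with the next at 10.15. Its mean signal was lower still in 3A4, an IDH1-mutant clone, at 1039 against 1067 in 17H5. Of these genes, PTTG1 also fell in 17H5 against 16F8 in limma's fit.

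MKI67 was highest in 3A4 at 9.80, with the next of the 7 mutant clones at 9.57, on its brightest probe set alone: on 2 of its dimmer probe sets 3A4 was the lowest of the 7. NEK2 was lowest in 47C2 at 9.05, with the next of the 4 IDH2-mutant clones at 9.33. INCENP was lowest in 8G12 at 3.95, with the next at 4.49, at signals where the replicates of 8G12 were 9.2 and 18.7. Among the IDH1-mutant clones, NEK2 was lower still in 3A4 and INCENP in 2C11.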

How the results depend on the processing

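The counts of members past the threshold by genotype were 0 under every alternative run. Poly-A term: 10 members passed in 17H5 (13.2% of all genes did), 5 in 3A4 (29%), 3 in 47C2 (8.2%) and 1 in 45G3 (3.44%) against 16F8, and 3 between 17H5 and 8G12 (6.46%). eBayes without a trend: 2 passed in 17H5 (7.22% of all genes did), 1 in 3A4 (24.6%) and 0 in 47C2 (5.72%) against 16F8. Between 17H5 and 8G12, 0 passed (2.57%). No filter on dim probe sets, with more genes tested: 1 passed in 3A4 (14.9% of all genes did) and 0 in 47C2 (3.02%) against 16F8. Between 17H5 and 8G12, 0 passed (1.47%). Probe set with the highest variance, 35 members tested: 1 passed in 2H1 (15.1% of all genes did) and 5 in 3A4 (25.7%) against 16F8. Between 17H5 and 8G12, 0 passed (2.96%). The median against parental was then 0.49 in 2C11, 0.43 in 2H1, 0.27 in 3A4 and 0.16 in 17H5. It was 0.31 in 8G12, 0.56 in 45G3, 0.40 in 47C2 and 0.42 in 16F8. Mean over all probe sets: 22 passed in 2H1 against parental (28.1% of all genes did). The medians were 0.37 in 2C11, 0.35 in 2H1, 0.15 in 17H5, 0.32 in 47C2 and 0.35 in 45G3. BUB3 reversed against parental with the highest-variance probe set, to 0.20 in 8G12 and 0.58 in 45G3, and with the mean over probe sets, to 0.035 and 0.10. The cause was not tested in any of these cases.

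With 1 array left out at a time, members past the threshold against parental numbered 14 to 23 in 2C11, 11 to 15 in 2H1, 8 to 16 in 3A4, 2 to 10 in 17H5, 4 to 14 in 8G12, 12 to 20 in 45G3, 8 to 15 in 47C2 and 7 to 13 in 16F8. Against 16F8 they numbered 0 to 2 in 2H1, 0 to 2 in 3A4, 0 to 4 in 17H5 and 0 to 1 in 47C2, and between clones of one genotype 0 to 1 in each pair. The F test gave 15 to 22. Medians ranged from 0.21 to 0.37 in 2C11 and from 0.069 to 0.15 in 17H5 against parental, and from -0.0081 to 0.12 in 2H1 against 16F8. The pairing check gave no ground for a replicate block; with it, 16 members passed in 2H1 and 10 in 8G12 against parental and 19 in the F test. For the 124 calls of single members, the alternatives other than leaving out an array kept 1280 values past the threshold in the same direction. Another 63 kept their direction but no longer passed, and 4 reversed.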
